A study of Mus musculus with 18 samples.

Results

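The annexins were examined as a gene family: the 10 genes Anxa1, Anxa2, Anxa3, Anxa4, Anxa5, Anxa6, Anxa7, Anxa10, Anxa11 and Anxa13, taken by symbol from gene tables that together held 18838 genes. Each of the 10 was present in all 3 tables. The study asked what the transcriptional corepressor Mtgr1 (gene symbol Cbfa2t2) does in the mouse duodenal epithelium, and bulk RNA was sequenced from freshly isolated crypts (day 0), from enteroids, the crypt-derived cultures grown in Matrigel, 24 h after plating (day 1), and from enteroids 72 h after plating (day 3). At each time, 3 libraries came from WT (Mtgr1+/+) mice and 3 from Mtgr1-/- mice, 18 libraries in all. Per the study's methods the mice were littermates of both sexes, those used for enteroids were 8 to 12 weeks old, the null allele was present in the whole body, and the enteroids of both genotypes grew in the same ENR medium.

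Annexins are cytosolic proteins that bind acidic phospholipids when calcium rises, through a conserved core of helical repeats. They carry out or regulate membrane repair, vesicle traffic, membrane fusion and the linking of membranes to actin, and several form complexes with calcium-binding S100 proteins. In the intestine, Anxa2, Anxa4 and Anxa13 are known from the apical membrane traffic of epithelial cells, Anxa10 from the stomach lining, and Anxa1 from wound repair and the resolution of inflammation.

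Each library held between 22035316 and 29661084 reads assigned to genes, recovered from the deposited normalized counts. The transcript of the targeted gene was not lower in the libraries labelled Mtgr1-/-: Cbfa2t2 differed from WT by a log2 fold change of -0.05 in crypts, 0.37 at day 1 and 0.06 at day 3 (limma adjusted p = 0.917, 0.0557 and 0.686). The counts are gene totals that do not show whether the transcript is intact, so the groups are named by their labels, and the libraries labelled Mtgr1-/- are called null-labelled. Epithelial markers such as Epcam, Cdh1 and Vil1 were detected in every library, 5 of 5. All 5 tested goblet and all 6 enteroendocrine markers were lower in the null-labelled libraries at every time. All 6 stem cell and all 6 Paneth cell markers were lower, 3 of 5 tested tuft cell markers were lower and all 8 enterocyte markers were higher at both enteroid times. In crypts none of the 6 Paneth cell markers passed, although the ranges of all 6 lay lower in the null-labelled libraries. Of the 6 stem cell markers, 1 passed in crypts, as lower, and no enterocyte or tuft cell marker passed. All 5 tested tuft cell markers had a positive log2 fold change there (median 1.81), and the ranges of 3 lay higher. WT crypt library 3 stood apart, with a summed count of 10 immune markers of 11729 against 761 to 1528 in the other 5 crypt libraries, and of 11 stromal and endothelial markers of 776 against 64.7 to 202. Null-labelled crypt library 2 also stood apart, with the Paneth cell transcript Lyz1 at 15296 against 438 and 426 in the other 2. In crypts 1 annexin, Anxa3, was called with or without either library. Whether these shifts in cell type markers had a part in the annexin differences below was not tested. In bulk RNA, fewer cells of a type and less RNA per cell cannot be told apart.

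The annexins together took 0.135 to 0.176% of the reads in WT crypts and 0.21 to 0.241% in null-labelled crypts. They took 0.238 to 0.322% and 0.36 to 0.39% at day 1, and 0.195 to 0.209% and 0.284 to 0.339% at day 3, so the range of the null-labelled libraries lay above that of WT at each time. Anxa2 and Anxa4 alone supplied 59.5 to 73.1% of these reads. Per length, as CPM (reads scaled to a fixed library total) per kilobase of annotated exon, Anxa13, Anxa2 and Anxa4 held the 3 highest mean levels in all 6 groups. In WT crypts these levels were 174 ± 37.8 for Anxa13, 157 ± 21 for Anxa2 and 106 ± 19 for Anxa4 (mean ± SD, n = 3), and the first pair overlapped. Anxa11 followed at 32.6 ± 0.868 and Anxa7 at 18.5 ± 1.72, and the remaining 5 lay under 5 (Anxa5 the highest of them, at 4.17 ± 1.88). The order among the top 3 depended on which length was used: with the longest transcript, Anxa2 led in WT crypts.

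Genotypes were compared within each time, on log2(normalized count + 1), with limma and Benjamini-Hochberg adjustment over all genes tested at that time. In crypts 9 of the 10 annexins were abundant enough to test, and 1 passed an adjusted p of 0.05: Anxa3 was lower. Across all genes tested there, 4.73% passed, 1.58% higher and 3.15% lower. At day 1, 9 of 10 annexins passed, against 58.9% of all genes, and 7 were higher and 2 lower, against 30% and 28.9%. At day 3, 7 of 10 passed, against 59%, and all 7 were higher, against 29.9% higher and 29.1% lower. The count ranges of the 2 groups did not overlap for 5 of the 9 annexins tested in crypts (25.5% of all genes), 9 of 10 at day 1 (68.1%) and 8 of 10 at day 3 (68.8%). CPM scaling, in which reads are divided by the library total, moved the median of all genes to -0.33 at day 1 and -0.20 at day 3, and the share of calls that were higher from 50.9% to 28.3% and from 50.7% to 35.2%. Of the annexins, 5 were then higher and 2 lower at day 1, and 7 higher and 1 lower at day 3. Quantile normalization left 4 higher and 2 lower at day 1 and called 7 higher and 2 lower at day 3, as array weights did at day 3. The median log2 fold change of the tested annexins was 0.19 in crypts, 0.70 at day 1 and 1.59 at day 3, beside 0.01, -0.01 and 0.00 for all genes tested.

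**Figure D1:**
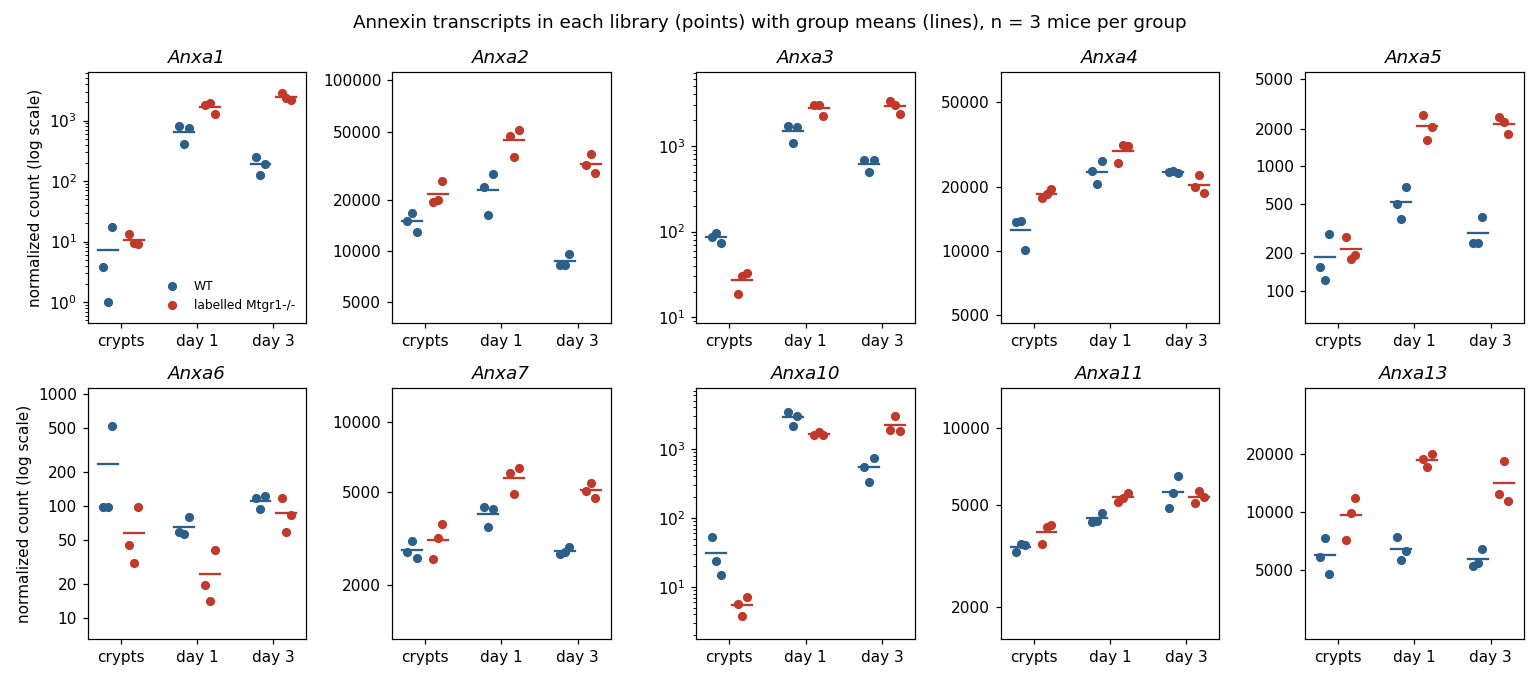
Normalized count (log axis, own scale in each panel) of each annexin in the 18 libraries, grouped by time of collection, with WT in blue, null-labelled libraries in red and short lines at the group means. At day 3 the 3 null-labelled libraries lie above the 3 WT libraries for Anxa1, Anxa2, Anxa3, Anxa5, Anxa7, Anxa10 and Anxa13, and for Anxa10 this order is the opposite of that at day 1.

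Anxa1 and Anxa5, the members best known from outside the cell, showed the largest log2 fold changes of the 10 at day 3. Anxa1 (chr19:20373428-20390944, minus strand, GRCm38), an anti-inflammatory annexin that signals through formyl peptide receptors, was nearly absent from crypts. Its normalized counts there were 3.83, 0.99 and 17.3 in WT libraries and 13.2, 9.51 and 9.15 in null-labelled libraries, too low to test. At day 1 the counts were 805, 410.3 and 753 in WT libraries against 1792, 1969 and 1287, and at day 3 they were 250.1, 126 and 192 against 2897, 2385 and 2152. The groups did not overlap at either enteroid time. The log2 fold change was 1.40 ± 0.27 (SE) at day 1, with an adjusted p of 0.00331, and it reached 3.75 ± 0.23 by day 3 (adjusted p = 1.63e-05), a 13.4-fold difference.

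Anxa5 (chr3:36448923-36475894, minus strand), the phosphatidylserine-binding annexin used as a label of dying cells, was present at similar counts in both groups of crypts, at 157, 122 and 288 in WT and 272, 182 and 195 in the null-labelled libraries. The ranges overlapped there, with a log2 fold change of 0.27 (95% confidence interval -0.52 to 1.06, adjusted p = 0.727). At day 1 its counts were 495, 380.1 and 686 against 2585, 1630.1 and 2050.4, and at day 3 they were 243, 243 and 395 against 2479, 2264 and 1823. All 3 null-labelled enteroid libraries were above all 3 WT libraries at both times, by 2.02 ± 0.24 on the log2 scale at day 1 (adjusted p = 0.000445) and by 2.92 ± 0.20 at day 3 (adjusted p = 2.53e-05). The annexin V stain used on cells reads a lipid at the cell surface, not the amount of this transcript.

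Anxa2 (chr9:69453620-69491795, plus strand), which binds S100a10 and links membranes to actin, had crypt counts of 14996, 16779 and 12993 in WT and 19268, 20024 and 25701 in the null-labelled libraries. These did not overlap, but the difference of 0.53 ± 0.16 did not pass the adjustment (adjusted p = 0.125). At day 1 the counts were 23700.4, 16285 and 28423 in WT against 47250.4, 35424 and 51070 in null-labelled libraries. The groups were separate, 0.99 ± 0.23 apart on the log2 scale (adjusted p = 0.00715, and 0.083 under quantile normalization, where the difference was 0.44). By day 3 the WT libraries had fallen to 8291, 8307 and 9645, while the null-labelled libraries held 31927, 36814 and 28804. That day 3 difference was 1.89 ± 0.12 on the log2 scale (adjusted p = 1.59e-05), or 3.71-fold.

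Anxa3 (chr5:96793339-96845966, plus strand), an annexin best known from neutrophils, changed its order between the groups. In crypts it was lower in the null-labelled libraries, with counts of 18.8, 30.4 and 32.5 against 87.2, 95 and 73.7 in WT, a log2 fold change of -1.64 ± 0.30 (adjusted p = 0.0295). That call was lost when any of WT replicate 1, WT replicate 2, null replicate 1 or null replicate 3 was left out (adjusted p = 0.142, 0.127, 0.0729 and 0.0572), and with the mouse number as a replicate block (adjusted p = 0.0568) or quantile normalization (adjusted p = 0.162), while the direction held in each. At day 1 Anxa3 was higher, at 2946, 3005 and 2225 against 1717, 1087 and 1669, and at day 3 it stood at 3290, 2998 and 2320 against 675, 491 and 686. No overlap was seen at any of the 3 times. The log2 fold changes were 0.89 ± 0.20 for day 1, with an adjusted p of 0.00593, and 2.22 ± 0.17 for day 3, with an adjusted p of 3.59e-05.

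Anxa10 (chr8:62057042-62123150, minus strand), a member whose calcium-binding sites are poorly conserved, was the one annexin that passed the test in opposite directions at the 2 enteroid times. In crypts it was scarce, at 53.7, 23.8 and 15 in WT and 5.65, 3.8 and 7.12 in the null-labelled libraries. The groups did not overlap, with a log2 fold change of -2.13 ± 0.59 (adjusted p = 0.103). At day 1 the WT libraries held 3454, 2164 and 2980.3 and the null-labelled libraries 1566, 1769 and 1603, a fall by 0.78 ± 0.16 on the log2 scale (adjusted p = 0.00484). At day 3 the order was the other way round, with 553, 329 and 747 in WT and 1900.1, 2996 and 1827 in the null-labelled libraries. The log2 fold change was then 2.08 ± 0.30 (adjusted p = 0.000745), or 4.24-fold higher.

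The stretch of DNA before the annotated RefSeq start of Anxa10 and of Anxa2 each held the AP-1 sequence TGANTCA, the site read by Fos and Jun proteins, and these stretches are shown because both genes were higher at day 3. Of the 10 annexins, 7 had an entry in the RefSeq promoter table (GRCm38.p6), with 9 starts between them. Each was searched over the 250 bases before the start, on both strands, for 3 motifs: TGANTCA (AP-1), GGAATG (TEAD) and CTTTGA (TCF/LEF). These occurred in 6.75%, 12.6% and 13.8% of the 32817 promoters in the table, counted per promoter and not per gene. Among the 7 annexins, AP-1 matches were found in 2, a TEAD match in 1 (Anxa1, inside an annotated exon) and TCF/LEF matches in 2 (Anxa4 and Anxa7). The Anxa10 matches begin 180 and 16 bases before the start and the Anxa2 match 95 bases before it. The stretch before Anxa5, which was also higher at day 3, held none of the 3 and is printed for comparison. Anxa1 and Anxa7, also higher at day 3, had no AP-1 match. Anxa3 and Anxa13, higher at day 3 as well, had no entry and were not searched. Links between the motif and the differences were not tested. Bases that GENCODE M21 places in an exon of the gene were cut off the end, the sequences run 5′ to 3′ on the gene's strand, and capitals mark TGANTCA.
Anxa10 (chr8:62123194-62123443, minus strand): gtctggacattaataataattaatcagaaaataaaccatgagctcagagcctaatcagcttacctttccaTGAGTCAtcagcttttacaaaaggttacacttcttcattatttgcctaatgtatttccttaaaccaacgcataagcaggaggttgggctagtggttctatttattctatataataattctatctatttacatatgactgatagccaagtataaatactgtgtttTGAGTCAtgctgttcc
Anxa2 (chr9:69453433-69453619, plus strand): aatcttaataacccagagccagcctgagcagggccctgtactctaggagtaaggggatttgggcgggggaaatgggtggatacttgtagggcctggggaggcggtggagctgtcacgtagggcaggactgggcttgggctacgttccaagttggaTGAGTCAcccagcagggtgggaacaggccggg
Anxa5 (chr3:36475895-36476137, minus strand): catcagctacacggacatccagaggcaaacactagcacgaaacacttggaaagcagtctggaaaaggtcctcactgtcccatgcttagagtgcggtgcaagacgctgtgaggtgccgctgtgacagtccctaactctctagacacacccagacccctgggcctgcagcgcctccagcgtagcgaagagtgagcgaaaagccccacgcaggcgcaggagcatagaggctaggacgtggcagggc
Such a match describes the letters and does not show that a factor bound there.

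Anxa13 (chr15:58341471-58389244, minus strand), an annexin largely limited to the intestine that acts in apical vesicle transport, was among the most abundant members. Its crypt counts were 5807, 7275 and 4749 in WT libraries and 7176, 9890.4 and 11806 in null-labelled libraries, which overlapped (log2 fold change 0.69 ± 0.22, adjusted p = 0.155). At day 1 it had the smallest adjusted p of the 10 annexins, 0.000114, with 7404, 5631 and 6235 counts in WT, 18996, 17242 and 20188 in the null-labelled libraries, and a difference of 1.56 ± 0.12 on the log2 scale. At day 3 it stood at 5215, 5446 and 6382 against 12374, 18545 and 11414, a difference of 1.28 ± 0.18 (adjusted p = 0.000635). The annotation types this gene as a processed transcript and flags an error in the reference genome there, so its length, and with it its level per kilobase, is uncertain.

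Anxa4 (chr6:86736840-86793584, minus strand), an epithelial annexin of the apical and ductal membrane, passed the main limma test at no time. Its crypt counts were 13664, 13748 and 10052 in WT libraries and 17674, 18513 and 19448 in null-labelled libraries, without overlap (log2 fold change 0.58 ± 0.15, adjusted p = 0.0805). The crypt difference passed as higher under quantile normalization (0.59, adjusted p = 0.0457), with array weights (0.42, adjusted p = 0.0175) and with DESeq2 on the recovered reads (0.57, adjusted p = 0.00191). With DESeq2 it also passed as higher at day 1 (0.32, adjusted p = 0.0287). The day 1 difference was 0.32 ± 0.14 (adjusted p = 0.0718), turning to -0.13 under quantile normalization, and the day 3 difference was -0.20 ± 0.10 (adjusted p = 0.113). At day 3 the WT libraries were tightly placed between 23131 and 23537, above the 18613 to 22601 of the null-labelled libraries. The day 3 difference passed as lower under quantile normalization (-0.44, adjusted p = 0.00301), with array weights (-0.31, adjusted p = 0.00187), without null replicate 2 (-0.28, adjusted p = 0.0168) and under CPM scaling, an alternative added after the data were seen (-0.40, adjusted p = 0.00399).

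Anxa7 (chr14:20455260-20480133, minus strand), known as synexin and involved in the fusion of secretory vesicles, differed by smaller amounts. In crypts its ranges overlapped (2608 to 3096 in WT and 2575 to 3644 in the null-labelled libraries, adjusted p = 0.663). At day 1 the WT libraries held 4314, 3530.2 and 4213 and the null-labelled libraries 6015, 4886 and 6328, which set them 0.51 ± 0.13 apart on the log2 scale (adjusted p = 0.00945). That day 1 call was lost under CPM scaling (0.19, adjusted p = 0.0953) and quantile normalization (0.21, adjusted p = 0.0693). At day 3 the counts were 2711, 2775 and 2896 against 5069, 5484 and 4737, a difference of 0.86 ± 0.08 (adjusted p = 9.24e-05) that passed under each alternative run.

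Anxa11 (chr14:25842156-25886804, plus strand), which tethers RNA granules to lysosomes, differed little between the groups. It was at 3292 to 3525 in WT crypts and 3522 to 4175 in null-labelled crypts (adjusted p = 0.341). At day 1 it passed as higher, with WT libraries at 4307 to 4644, null-labelled libraries at 5136 to 5576 and a difference of 0.27 ± 0.08 (log2, adjusted p = 0.0184), but the sign turned to -0.05 under CPM scaling and -0.02 under quantile normalization. Its day 1 adjusted p was 0.0688 without WT replicate 1, 0.0643 without WT replicate 2 and 0.0501 without null replicate 3. At day 3 the ranges overlapped, with a log2 fold change of -0.06 (95% confidence interval -0.31 to 0.20, adjusted p = 0.689), and under quantile normalization it passed as lower (-0.29, adjusted p = 0.0374).

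Anxa6 (chr11:54979108-55033445, minus strand), a member with a repeated core that is known from cholesterol handling and from lymphocytes, was the one annexin whose mean was lower in the null-labelled libraries at all 3 times. In crypts the counts were 98.7, 98 and 514.5 in WT libraries and 45.2, 31.4 and 97.6 in null-labelled libraries, a log2 fold change of -1.70 ± 0.72 (adjusted p = 0.272). The highest value came from WT crypt library 3, the one rich in immune markers, where Ptprc (CD45), the surface marker of white blood cells, stood at 3795 against 144 to 450.3 in the other 5. Without that library the crypt difference of Anxa6 was -0.91 (adjusted p = 0.404). With the mouse number as a replicate block it was called (adjusted p = 0.0478).

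At day 1 Anxa6 passed as lower, with 58.5, 56.2 and 79.6 in WT against 19.8, 14.2 and 40.8 in the null-labelled libraries, a log2 fold change of -1.46 ± 0.40 (adjusted p = 0.0144). The highest library of each group at day 1 was from mouse 3, which also had the highest immune marker sum of its group, 492 in WT and 823 in the null-labelled libraries against 188 to 202 and 132 to 156 in the others. Without WT replicate 3 the day 1 adjusted p was 0.0536, and without null replicate 3 it was 0.0035. Defining T cell, B cell and macrophage markers were at 0 in some enteroid libraries, with up to 3 of 10 immune markers at 0. The macrophage marker Csf1r passed as higher in the null-labelled libraries at day 1 (3.70, adjusted p = 0.00323) and day 3 (4.03, adjusted p = 0.0028), and Cd68 at day 3 (0.85, adjusted p = 0.041). Csf1r was scarce, with mean normalized counts of 0.86 in WT and 25.2 in null-labelled libraries at day 1, and 3.78 and 59.1 at day 3. The immune list as a whole was mixed. Of its 8 markers tested on day 1, 3 had a positive log2 fold change, and the median was -0.70. Of the 5 tested on day 3, 4 were positive, with a median of 0.85. No immune marker passed in the opposite direction in enteroids. At day 3 the ranges of Anxa6 overlapped, 94.4 to 124 in WT and 58.7 to 118 in the null-labelled libraries, and the difference of -0.41 ± 0.26 did not pass (adjusted p = 0.214). Null-labelled library 3 of day 3 held an immune marker sum of 1099 against 138 and 182 in the other 2, and without it the Anxa6 difference was -0.41 (adjusted p = 0.295). The highest Anxa6 count of that group, 118, was in library 1, which had the lowest sum, and library 3 held 84.2. In WT at day 3, library 3 had the highest sum, 151, and the highest Anxa6 count, 124. The day 3 difference passed as lower without null replicate 1 (-0.65, adjusted p = 0.0385) and with array weights (-0.40, adjusted p = 0.0444). Links of Anxa6 to the immune markers were not tested.

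**Figure D2:**
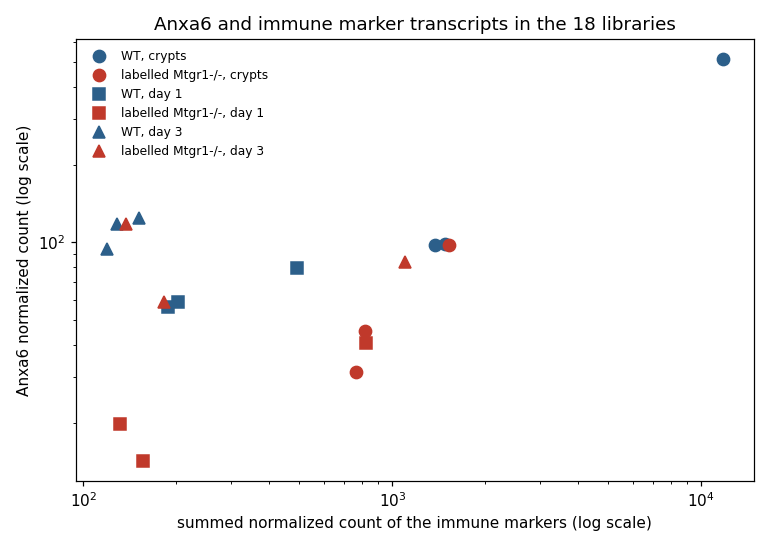
Anxa6 normalized count (vertical, log axis) against the summed normalized count of the immune markers (horizontal, log axis) in each of the 18 libraries, with colour for genotype label and symbol for time. WT crypt library 3 lies alone at the upper right, at 514.5 on the vertical and 11729 on the horizontal axis.

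**Figure D3:**
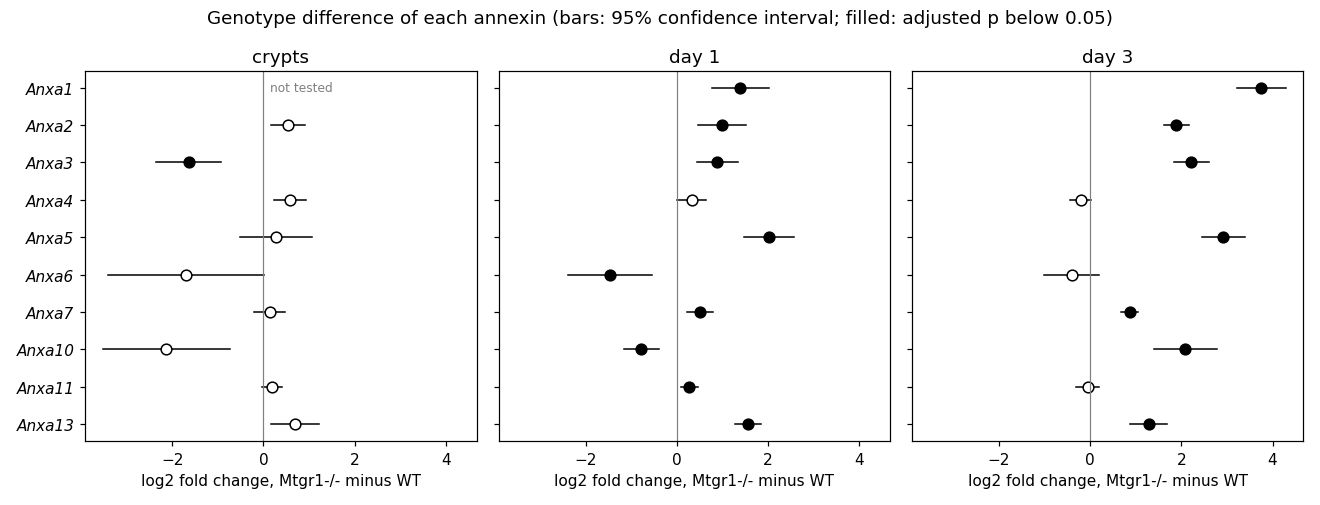
Log2 fold change of each annexin, null-labelled minus WT, at each time (points, with bars for the 95% confidence interval from limma, filled where the adjusted p was below 0.05). Filled points lie at both sides of 0 at day 1, with Anxa6 at -1.46 and Anxa10 at -0.78 to the left, and only to the right at day 3.

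Over culture, Anxa1, Anxa3 and Anxa10 were scarce in crypts and more abundant in enteroids of both genotypes. These levels are mean CPM values of the recovered reads, given without a test because the 3 tables were normalized separately. In WT, Anxa10 went from 1.22 in crypts to 119.7 at day 1 and 22.6 at day 3, Anxa1 from 0.287 to 27.4 and 7.91, and Anxa3 from 3.36 to 62.3 and 25.8. In the null-labelled libraries Anxa10 went from 0.219 to 55.6 and 80.6, Anxa1 from 0.429 to 57.1 and 90.4, and Anxa3 from 1.09 to 92.2 and 104. Anxa5 went from 7.4 to 21.8 and 12.2 in WT, and from 8.73 to 69.6 and 79.7 in the null-labelled libraries, where its day 3 level was 9.13 times that of crypts against 1.65 times in WT.

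Between the enteroid times most WT means fell, while several null-labelled means did not. From day 1 to day 3 the WT mean fell to 0.189 of its day 1 level for Anxa10, 0.289 for Anxa1, 0.382 for Anxa2, 0.414 for Anxa3, 0.561 for Anxa5 and 0.692 for Anxa7. The null-labelled mean over the same interval was 1.45 times its day 1 level for Anxa10, 1.58 for Anxa1, 0.792 for Anxa2, 1.13 for Anxa3, 1.14 for Anxa5 and 0.963 for Anxa7. Anxa11 and Anxa13 had more similar ratios in both, 1.26 and 1.08 for Anxa11 and 0.882 and 0.805 for Anxa13, and Anxa4 had 0.99 in WT and 0.743 in the null-labelled libraries. Anxa6 went the other way from most members after plating, to 0.294 of its crypt level in WT at day 1 and 0.363 in the null-labelled libraries, and its day 3 means were 1.72 and 3.9 times those of day 1.

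**Figure D4:**
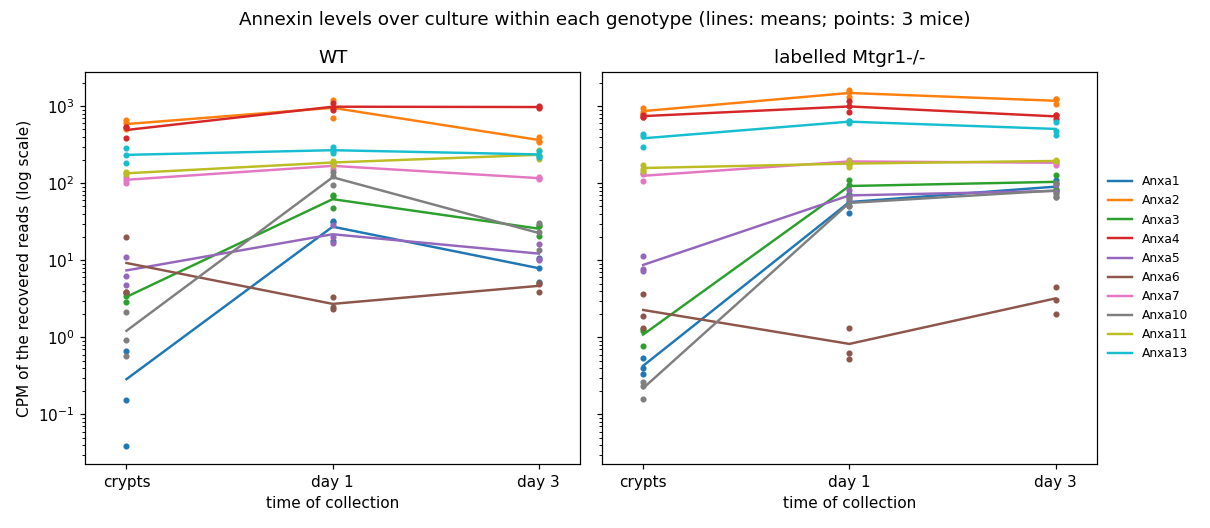
CPM of the recovered reads (log axis) of the 10 annexins at the 3 times, in WT (left) and null-labelled libraries (right), with lines through the means and a point for each of 3 mice. In WT the lines of Anxa1, Anxa3 and Anxa10 peak at day 1, while in the null-labelled libraries they are highest at day 3.

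Whether the genotype difference changed between times was tested in a single limma fit of the 18 libraries. From crypts to day 1, 3 of the 9 annexins tested changed their genotype difference, against 41.4% of all genes, and all 3 became more positive: Anxa3 by 2.53 ± 0.32, Anxa5 by 1.75 ± 0.43 and Anxa13 by 0.87 ± 0.29 on the log2 scale (adjusted p = 0.00036, 0.00563 and 0.0244). The Anxa13 change did not pass without WT replicate 2 (0.62, adjusted p = 0.157) or without null replicate 1 (0.66, adjusted p = 0.112). No test of change was run under CPM scaling. That scaling put the median genotype difference of all genes at 0.04 in crypts, -0.33 at day 1 and -0.20 at day 3. From crypts to day 3, 6 of 9 changed, against 31.6% of all genes. Anxa10 moved by 4.21 ± 0.53 and Anxa3 by 3.86 ± 0.32, the largest of the 9, followed by Anxa5 at 2.65 ± 0.43, Anxa2 at 1.36 ± 0.27 and Anxa7 at 0.73 ± 0.18. Anxa4 moved the opposite way, by -0.79 ± 0.18 (adjusted p = 0.00716), from higher to lower in the null-labelled libraries.

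From day 1 to day 3 none of the 9 annexins passed this limma test, and 4 of 12145 genes did (0.0329%). Unadjusted p was below 0.05 for 5 of the 9, Anxa2, Anxa3, Anxa4, Anxa10 and Anxa11, against 7.23% of all genes. Anxa10 had the largest change of the 9, 2.86 ± 0.53, with an adjusted p of 0.0668. Fitted on the 12 enteroid libraries alone, an alternative added after the data were seen in which 0.491% of genes passed, the Anxa10 change passed (adjusted p = 0.0158, against 0.0158 to 0.292 over the alternatives run), as did that of Anxa1, which is abundant enough to test there, at 2.35 ± 0.42 (adjusted p = 0.0388). Without a filter on low values, on all 18 libraries, the Anxa1 change had an adjusted p of 0.353. In that fit its change was 0.36 from crypts to day 1 (adjusted p = 0.758) and 2.71 from crypts to day 3 (adjusted p = 0.0185). Its crypt counts were too low for the main fit.

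The genes whose pattern was most like each annexin were found by the root mean square difference of log2 values, centred on the WT mean of each table, over the 18 libraries and 12144 other genes (12145 for Anxa1). Closest to Anxa7 were F11r (0.08), Lgals4 (0.09) and Pkp3 (0.10), and to Anxa13 Ms4a8a (0.16), Slc7a7 (0.19) and Plin3 (0.19). For Anxa2 they were Gch1 (0.21), Slc25a24 (0.22) and Rhof (0.23), and for Anxa1 Fgd3 (0.33), Rbpms (0.41) and Wfdc2 (0.49). Anxa5 was nearest Eif5a2 (0.35), Slc40a1 (0.35) and Nxpe3 (0.36). Anxa3 was nearest Guca2a (0.47), Pdlim7 (0.49) and the membrane repair gene Myof (0.49). Anxa10 had the least close neighbours of these 7, Foxq1 (0.66), Kcnk6 (0.68) and Adcy8 (0.71). Between annexins the closest pair was Anxa4 and Anxa11 (0.22), then Anxa2 and Anxa13 (0.38). This distance is not scaled to the size of a gene's differences, so genes that differ little lie close to each other. Shared regulation was not tested.

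The proteins that annexins work with were examined as 3 lists. Of 8 annexin-binding S100 proteins and calcium sensors, 7 were tested: none passed in crypts, 4 were higher and none lower at day 1, and 5 were higher and none lower at day 3, against 30% of all genes higher at day 1 and 29.9% at day 3. In CPM per kilobase at day 1, the listed Sri lay lower in null-labelled libraries, at 36.3 to 38.5 against 46.7 to 50.4 in WT. Pef1 lay lower too, at 31.7 to 37.2 against 37.6 to 40.3, and S100a1 overlapped. The means of the 4 called genes were still higher on that scale. S100a10, the partner of Anxa2, was higher with it in enteroids: WT libraries held 6278, 4717 and 7174 counts and null-labelled libraries 10143, 8251 and 10433 at day 1, and 3288, 3246 and 3447 against 6713, 6997 and 6384 at day 3. The groups did not overlap at either time, and the log2 fold changes were 0.68 (adjusted p = 0.00917) and 1.01 (adjusted p = 3e-05). S100a6, a partner of Anxa2 and Anxa11, had the largest difference of its list at day 1, 1.31 (adjusted p = 0.00219), and stood at 1465 ± 546 in WT and 12514 ± 2310.2 in the null-labelled libraries at day 3, 3.15 on the log2 scale. Pdcd6 (ALG-2), the calcium sensor that binds Anxa7 and Anxa11, differed by 0.81 at day 1 (adjusted p = 0.00116) and S100a11 by 0.72 (adjusted p = 0.0134).

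Of 8 receptors, other binding partners and effectors, 5 were tested in enteroids and none of the 4 tested passed in crypts. At day 1 none was higher and 2 were lower, against 30% and 28.9% of all genes. The lower were Pla2g4a, the phospholipase that Anxa1 and other annexins can inhibit, by -2.45 (adjusted p = 0.000504) and the ubiquitin ligase Nedd4 by -0.63 (adjusted p = 0.00358). At day 3, 2 were higher and 2 lower, against 29.9% and 29.1% of all genes. Ahnak, a scaffold of the Anxa2 and S100a10 complex, was among the higher at 2.50, after 0.53 at day 1, which did not pass (adjusted p = 0.0765). The formyl peptide receptors Fpr1 and Fpr2, which sense Anxa1, were too low to test at every time, with group means of at most 1.42 normalized counts.

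Of 10 plasma membrane repair genes, 9 were tested. In crypts 1 was higher, the calpain subunit Capn2 (1.57, adjusted p = 0.0229), and 2 lower, the ferlin Myof (-2.43, adjusted p = 0.00186) and Trim72 (-1.34, adjusted p = 0.0179), against 1.58% and 3.15% of all genes. These 3 were the crypt calls of the 3 partner lists together, which fell to 1 without WT replicate 1 and to 1 without WT replicate 2, and rose to 5 with array weights. At both enteroid times 8 of 9 were higher, against 30% of all genes at day 1 and 29.9% at day 3, and Trim72 was lower. All 8 kept a higher null-labelled mean in CPM per kilobase, but not all ranges stayed apart. Vps4a spanned 20.0 to 21.0 in WT and 20.4 to 21.7 in null-labelled libraries on day 1. Its day 3 ranges were 18.6 to 19.0 and 18.5 to 19.6. Capn1 overlapped on day 1 only, with 37.7 to 44.6 in WT and 42.0 to 52.3 in null-labelled libraries. The null-labelled ranges of the other genes called higher, Vps4b included, lay above those of WT. Myof, like Anxa3, passed as lower in crypts and as higher in enteroids: it was at 227 ± 41 in WT and 40.9 ± 3.7 in null-labelled crypts, at 819 ± 196 and 1604 ± 272 at day 1, and at 335 ± 86.7 and 2487 ± 621 at day 3. The median log2 fold change of the 9 was 0.60 at day 1 and 0.60 at day 3, beside -0.01 and 0.00 over all genes.

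**Figure D5:**
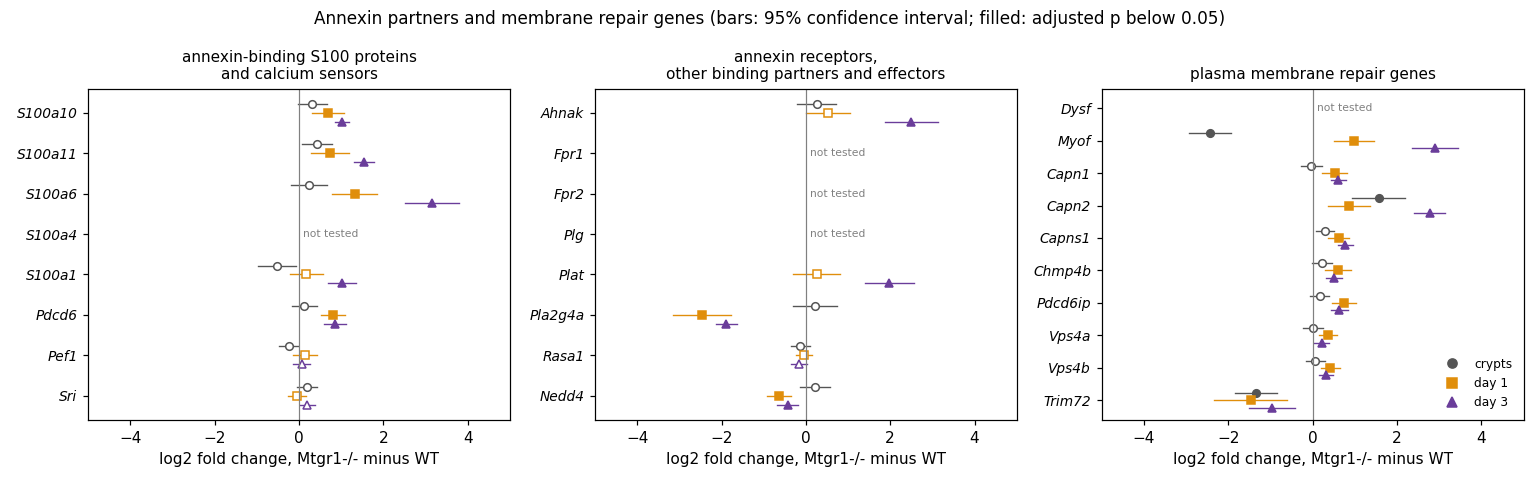
Log2 fold change, null-labelled minus WT, of the 3 partner lists at each time (points, with bars for the 95% confidence interval, filled where the adjusted p was below 0.05). At day 3, S100a6 at 3.15, Myof at 2.89, Capn2 at 2.77 and Ahnak at 2.50 lie farthest to the right and Pla2g4a at -1.89 farthest to the left.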

How the data were processed

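RNA was sequenced in 18 bulk libraries as single reads of 50 bases from stranded mRNA libraries. Per the labels, the authors used fastp 0.20.0 for trimming, Salmon 1.3.0 for quantification and DESeq2 1.26.0. The deposited signal is a normalized count: a gene's summed count over 1 size factor per library, set separately at each time. Each value is a whole multiple (within 1e-06) of a step of its library, which gave back the reads, 22035316 to 29661084 per library, so depth is known. CPM are those reads scaled to a fixed library total. Other deposited columns (log2 fold changes with errors, a Wald score, p-values) hold the authors' own comparisons and were not used. No column of values from another sample was present (0).

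Groups came from the labels. In each table, genes averaging 10 or more normalized counts entered limma 3.58.1 (eBayes with a trend, R 4.3.3) as log2(normalized count + 1), two-sided, 3 mice against 3, with Benjamini-Hochberg adjustment over 12980, 12587 and 12782 genes and a threshold of 0.05. Fold changes are on that scale and understate the change of low genes. The change of the genotype difference between times was fitted on all 18 libraries, mouse being a random effect (its correlation was -0.00481), over 12145 genes. The scripts were tested on simulated data. Alternatives were 2 pseudocounts, no filter, other scalings, edgeR 4.0.16 and DESeq2 1.42.0 on the recovered reads, array weights, a replicate block and each library left out. Mouse numbers are shared by the genotypes, but the labels do not say that same-numbered libraries are pairs, and the main tests did not use the numbers as pairs. Deviations from the group means of same-numbered libraries correlated at 0.116, 0.231 and 0.216 at day 1. They correlated at 0.0764, 0.274 and 0.346 in crypts and at -0.0067, -0.0023 and -0.0156 at day 3. The highest correlation between differently numbered libraries was -0.0152 at day 1, 0.2005 in crypts and 0.1047 at day 3.

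The 10 annexins and the partner and marker lists were chosen with earlier results of these data known. All annexins are named, with up to 3 genes per partner list by the largest difference among those called at day 1, the 3 genes most like each annexin called at 2 or more times, and Cbfa2t2. S100a10, S100a1, Sri, Pef1, Ahnak, Fpr1, Fpr2, Capn1, Vps4a, Vps4b, Csf1r and Cd68 were named after their values were seen. Gene IDs matched GENCODE M21 (GRCm38).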

Additional observations from a re-analysis of the deposited data

Results flagged for a closer look

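For these annexins the genotype difference, null-labelled minus WT, changed between times by a test of the change itself (limma, adjusted p below 0.05, all 18 libraries, log2 scale). From crypts to day 1 the change was 2.53 for Anxa3, 1.75 for Anxa5 and 0.87 for Anxa13. From crypts to day 3 it was 1.36 for Anxa2, 3.86 for Anxa3, -0.79 for Anxa4, 2.65 for Anxa5, 0.73 for Anxa7 and 4.21 for Anxa10. Of these, Anxa3 passed the test in opposite directions in crypts and in enteroids, whereas Anxa4 passed at no single time. The Anxa4 difference was 0.58 in crypts and -0.20 at day 3. With 3 libraries per group, no single library was tested for standing apart within its group.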

How the results depend on the processing

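In crypts the number of annexins called was 1, and it became 2 under quantile normalization (Anxa2 and Anxa4), 4 with array weights and 6 with DESeq2 on the recovered reads. It ranged from 0 to 1 when each library was left out. From day 1 to day 3 the number whose genotype difference changed was 0, and it was 1 with a pseudocount of 8, 2 on the 12 enteroid libraries and 0 to 2 with each mouse left out (2 without null replicate 2, Anxa3 and Anxa10). The crypt count of the partner and repair genes, 3, became 1 without WT replicate 1, 1 without WT replicate 2 and 5 with array weights. The other annexin counts stayed within 1.5 times: 6 to 10 annexins at day 1, 7 to 9 at day 3, 2 to 4 for crypts to day 1 and 6 to 7 for crypts to day 3. Directions reversed for Anxa4 at day 1 (-0.13, quantile normalization), Anxa11 at day 1 (-0.020, quantile normalization, and -0.049, CPM scaling), Anxa11 at day 3 (0.052 without WT replicate 3, from -0.158 to 0.052 with each library left out) and the crypts to day 1 change of Anxa6 (-0.39 without WT replicate 3, from -0.39 to 0.575 with each mouse left out). The causes were not tested. With the replicate block the calls over all genes were 562 for crypts, 8027 for day 1 and 7289 for day 3, and those of annexins 1, 9 and 7, with no annexin call changed at day 1 or day 3.

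Across all genes the crypt calls moved from 614 to between 175 (without WT replicate 1) and 2100 (array weights), with 1379 under DESeq2. Without WT replicate 2 they were 213, without null replicate 1 they were 312 and without null replicate 3 they were 375. Crypt levels of Anxa1 (1 to 15 reads in WT) were too low to show a genotype difference.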

Other observations

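Anxa8 and Anxa9 were also in the tables and were looked at after the annexins above; they were chosen after their values were seen. Anxa8 was at 0 to 1 reads in each crypt library, at 128, 46.9 and 138 normalized counts in WT and 152, 238 and 75 in null-labelled libraries at day 1, and at 42.1, 18.7 and 78.4 against 687, 844 and 483 at day 3. The day 1 ranges overlapped (log2 fold change 0.56, limma adjusted p = 0.375) and those of day 3 did not (4.01 ± 0.46, adjusted p = 0.000241). Anxa9 passed as higher at day 1 (0.70, adjusted p = 0.0406) and day 3 (1.12, adjusted p = 0.00427), with 28.1 to 30.2 against 39.7 to 55.9 and 21.4 to 32.3 against 58.4 to 63.7 normalized counts.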
